A study of Mus musculus with 10 samples.

Results

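The genes described here are those of sterol and fatty acid synthesis: 32 genes, of 25229 in the count table, taken by symbol from a list of pathway members and not by their values. They fall into a cholesterol arm of 18 enzymes, with 7 in the mevalonate segment and 11 in the segment from squalene to cholesterol, a fatty acid arm of 8 enzymes, 5 regulators of the SREBP factors and 1 sterol transport gene, Stard4. RNA came from adipose stem and precursor cells (ASPCs) of WT mice, sorted from digested perigonadal white adipose tissue as CD45-CD31-Pdgfra+ cells and grown to confluence without passaging. There were 5 libraries from cells given the vehicle DMSO and 5 from cells given 100 nM FICZ, a ligand of the aryl hydrocarbon receptor (AHR), all collected after 6 hr and numbered 1 to 5 in each group. The labels do not say whether the libraries of a group came from separate animals or cultures, so p-values here measure only the spread between these libraries, which may be technical. The age and sex of the mice used for these cultures are not given in the labels.

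Cholesterol is built from acetyl-CoA through mevalonate and the isoprenoids to squalene, which is then closed to a ring and trimmed to cholesterol. Fatty acids are built from the same acetyl-CoA by Acaca and Fasn, then lengthened and desaturated. The SREBP transcription factors, encoded by Srebf1 and Srebf2, switch on both arms: when sterol is scarce the escort protein SCAP carries them from the endoplasmic reticulum to the Golgi for cleavage, and when sterol is plentiful the INSIG proteins hold them back. In adipose precursors these lipids serve growing membranes, and the fatty acid arm becomes a major route once the cells turn into adipocytes.

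The treatment could be read from the AHR targets. Cyp1a1, a cytochrome P450 that oxidises AHR ligands, rose by a log2 fold change of 3.25 (edgeR's quasi-likelihood test, adjusted p = 0.0189), and the AHR repressor Ahrr rose by 1.66 (adjusted p = 0.00324). The AHR target Tiparp rose by 0.91 (adjusted p = 0.0335), while Cyp1b1, at 0.62, did not pass in edgeR (adjusted p = 0.147). The call of Cyp1b1 depended on the tool and on the libraries kept. It passed in DESeq2 (adjusted p = 3.3e-05), and in edgeR without DMSO library 5 (adjusted p = 0.0220). For all 4 the groups did not overlap. The call of Ahrr held without any 1 library in edgeR, whereas Cyp1a1 lost its call without DMSO library 1 or 2 or FICZ library 1, 2 or 3 (adjusted p from 0.0692 to 0.0924) and without the filter on low counts (0.0726). Tiparp lost its call in edgeR with the replicate number as a block (adjusted p = 0.0509) and with a stricter filter on low counts (0.0506). Its call was also lost without DMSO library 1, 2, 3 or 4 or FICZ library 1, 2 or 3 (adjusted p from 0.0650 to 0.190). Library totals ran from 38328611 to 50210111 counts. The sort marker Pdgfra had 45683 counts or more in every library. DMSO library 5 stood apart: 15 hepatocyte markers summed to 9486 CPM there (read counts scaled to a common library total), against 1336 to 3656 in the other DMSO libraries and 1299 to 2022 in the FICZ libraries, with none of the 15 at 0 in any library. Mature adipocyte markers summed to 960 to 1530 CPM in DMSO and 968 to 1386 in FICZ, with 1 of the 10, Lep, at 0 throughout. Most of that sum was Lpl, at 882 to 1381 CPM with TMM factors. On the same scale Adipoq measured 0.870 to 7.05 CPM and Fabp4 32.8 to 80.0 CPM. In these bulk samples fewer cells of a type and less RNA per cell cannot be told apart.

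None of the 32 sterol and fatty acid synthesis genes passed the test for a difference between FICZ and DMSO. All 32 were measured, at 192 counts or more in every library, and all 32 passed the filter on low counts. None passed an adjusted p of 0.05 in edgeR's quasi-likelihood test, against 3 of the 14251 genes tested (0.0211%), and the lowest adjusted p among the 32 was 0.999. None reached an unadjusted p of 0.05 either, where 687 of all genes did (4.82%), and DESeq2 and limma-voom also gave 0. The groups overlapped for every one of the 32 genes, whereas 0.47% of all genes tested separated the groups in all 10 libraries. The log2 fold changes lay between -0.48 and 0.17, with 14 above 0 and 18 below, and their median of -0.03 stood beside 0.01 over all genes. For 30 of the 32, the 95% interval of the fold change stayed within 2-fold in either direction. The other two, Tm7sf2 and Scd1, had intervals that reached past 2-fold lower.

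**Figure D1:**
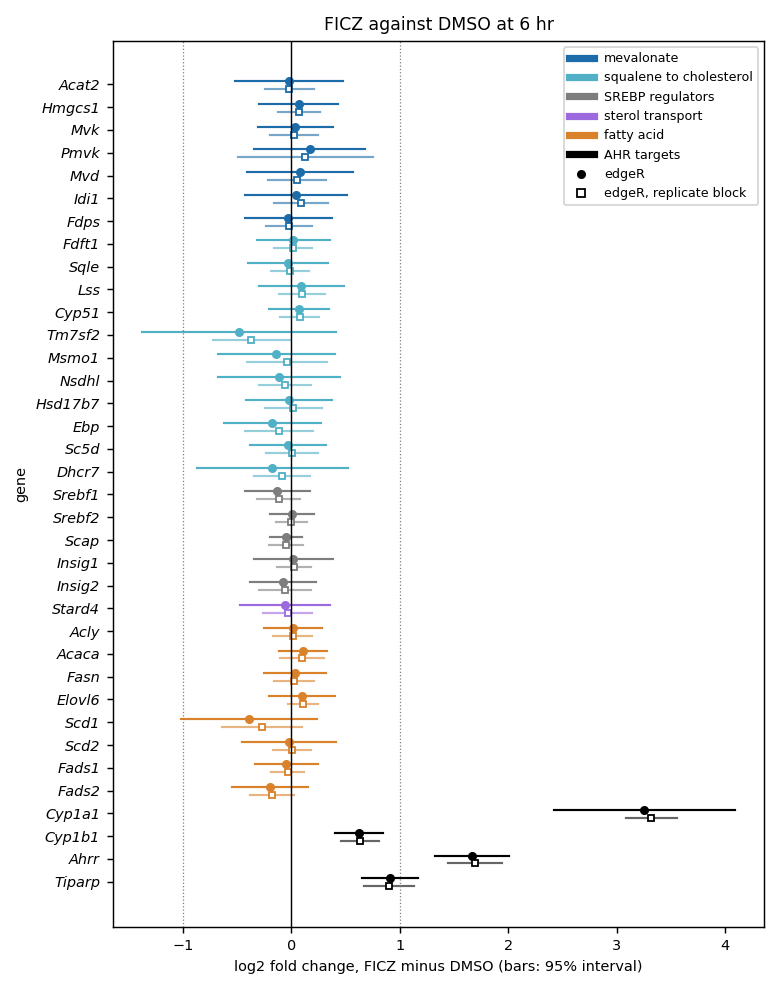
Log2 fold change of FICZ against DMSO (x axis) for each of the 32 genes and the 4 AHR targets (y axis, grouped by role). Filled circles are estimates of edgeR's quasi-likelihood test, open squares those with the replicate number as a block, and bars the 95% interval. For the 32 genes every interval without the block crosses 0, and those estimates run from -0.48 for Tm7sf2 to 0.17 for Pmvk. With the block the interval of Tm7sf2 lies below 0 (-0.72 to -0.02). The intervals of the AHR targets all lie above 0.

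Taking the replicate number as a block narrowed the errors, from a median standard error of 0.17 to 0.09 on the log2 scale. In that fit 8 genes of all tested (0.0561%) passed the adjusted threshold and none of the 32 did. At an unadjusted p of 0.05 there was 1 of the 32, against 4.65% of all genes: Tm7sf2, at a log2 fold change of -0.37 with a 95% interval of -0.72 to -0.02 and an adjusted p of 0.929 from edgeR. With the block all 32 intervals lay within 2-fold, and 29 within 1.5-fold. Across the 5 same-numbered pairs, 1 of the 32 was higher with FICZ in every pair, against 4.32% of all genes, and none was lower in every pair, against 2.81%. A count of 1 in 32 is near that background. The gene was Elovl6, which lengthens saturated fatty acids, and it was named after its values were seen. It measured 106, 111, 105, 128 and 162 CPM in DMSO libraries 1 to 5 and 118, 127, 113, 136 and 163 CPM in FICZ libraries 1 to 5. The pair differences ran from 0.004 to 0.20 on the log2 CPM scale, and the groups overlapped.

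In the mevalonate segment, 5 of 7 genes had a log2 fold change above 0 and 2 below, with a median of 0.04, and none passed a test. Hmgcs1, at chr13:119690379-119708260 in GRCm38 (plus strand), makes the HMG-CoA that the mevalonate pathway starts from. It measured 378, 408, 339, 534 and 542 CPM in DMSO libraries 1 to 5 and 457, 404, 365, 465 and 617 CPM in FICZ libraries 1 to 5. Library 5 was the highest and library 3 the lowest in both groups, and the groups overlapped over most of their range. Its log2 fold change was 0.07 (SE 0.17, 95% interval -0.30 to 0.43), and an exact two-sided permutation test gave p = 0.714.

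The promoters of these genes were read for 3 motifs on both strands, since SREBP factors act through sterol response elements together with NF-Y, and AHR acts through xenobiotic response elements. RefSeq's promoter table for GRCm38.p6 held 25 of the 32 genes, and the 250 bases before each transcription start were searched. The sterol response element, spelled TCACNCCAC, occurred in 1 of 33 promoters of these genes (3.03%), that of Hmgcs1, against 1.05% of all 32851 promoters in the table. The NF-Y box, spelled CCAAT, occurred in 20 of 33 (60.6%), against 33.8% of all promoters. The xenobiotic response element, spelled TNGCGTG, occurred in 2 of 33 (6.06%), those of Acat2 and Insig1, against 4.1% of all. A match is a run of letters and not a measured binding site, and the 3 motifs do not overlap each other in the stretches printed. The first 2 sequences are shown because Hmgcs1 holds the lone sterol response element and Mvk, encoding mevalonate kinase, the most NF-Y boxes, with 5. The last is shown for its xenobiotic response element, in Acat2, whose enzyme condenses acetyl-CoA. All run 5′ to 3′ on the gene's own strand, with the motifs in capitals, so that ATTGG is the NF-Y box on the opposite strand. Hmgcs1 is chr13:119690101-119690350 (plus strand), Mvk is chr5:114444019-114444268 (plus strand) and Acat2 is chr17:12960748-12960975 (minus strand), which stops where GENCODE's gene begins.
Hmgcs1: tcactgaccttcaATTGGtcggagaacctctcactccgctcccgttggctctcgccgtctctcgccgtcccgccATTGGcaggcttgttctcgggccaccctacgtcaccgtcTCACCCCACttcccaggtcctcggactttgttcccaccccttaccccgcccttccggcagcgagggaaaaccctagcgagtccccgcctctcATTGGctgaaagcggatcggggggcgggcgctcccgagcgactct
Mvk: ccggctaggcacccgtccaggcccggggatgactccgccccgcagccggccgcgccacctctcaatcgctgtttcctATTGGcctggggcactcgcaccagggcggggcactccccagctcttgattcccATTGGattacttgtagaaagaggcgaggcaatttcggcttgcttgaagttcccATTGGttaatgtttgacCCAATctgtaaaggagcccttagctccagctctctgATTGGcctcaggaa
Acat2: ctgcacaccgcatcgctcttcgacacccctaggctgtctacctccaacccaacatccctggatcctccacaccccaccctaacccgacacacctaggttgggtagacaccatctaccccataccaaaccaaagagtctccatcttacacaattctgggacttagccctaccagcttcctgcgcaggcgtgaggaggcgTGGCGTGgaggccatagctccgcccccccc

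Acat2, with its xenobiotic response element, measured 105, 118, 88.5, 161 and 181 CPM in DMSO libraries 1 to 5 and 134, 109, 84.2, 132 and 182 CPM in FICZ libraries 1 to 5. FICZ library 1 lay above DMSO library 1, FICZ library 4 lay below DMSO library 4, and the groups overlapped. Of the 50-base stretches of its transcripts, 39.1% also occur in Acat3, so how reads were shared between them could change its counts. Mvk, with the most NF-Y boxes, measured 74.6, 77.2, 64.4, 102 and 79.8 CPM in DMSO and 82.7, 69.1, 59.4, 93.2 and 103 CPM in FICZ, in the order of the numbers.

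Pmvk, which adds the next phosphate to mevalonate after Mvk, departed from most of the other genes in library 5 and was singled out after its values were seen. It measured 28.9, 30.5, 26.6, 34.8 and 17.8 CPM in DMSO libraries 1 to 5 and 34.8, 26.7, 17.1, 32.9 and 44.1 CPM in FICZ libraries 1 to 5. DMSO library 5 was the lowest of its group and FICZ library 5 the highest of all 10, a difference of 1.31 on the log2 CPM scale within number 5. Mvd, the decarboxylase that follows Pmvk in the pathway, measured 88.1 CPM in DMSO library 5 and 125 CPM in FICZ library 5. Idi1, which interconverts the isoprenoid building blocks, measured 62.0 and 52.4 CPM in the same libraries, the opposite order. Fdps, the farnesyl diphosphate synthase that closes the segment, measured 301 and 299 CPM. Idi1 shares 17.7% of its 50-base stretches with Gm13502. Fdps shares 26.2% with other genes, most of them with Gm43738, which overlaps 1124 of its exon bases on the same strand.

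In the segment from squalene to cholesterol, 3 of 11 genes had a log2 fold change above 0 and 8 below, with a median of -0.03, and none passed a test. Sqle (chr15:59315077-59331192, plus strand) oxidises squalene ahead of ring closure and is a rate-setting step. It measured 198, 212, 182, 275 and 325 CPM in DMSO libraries 1 to 5 and 226, 199, 198, 253 and 289 CPM in FICZ libraries 1 to 5. Libraries 4 and 5 were the highest of both groups, and the groups overlapped. For Sqle the log2 fold change was -0.03 (SE 0.17, 95% interval -0.40 to 0.33).

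Tm7sf2 (chr19:6062821-6068373, minus strand), a sterol reductase of the endoplasmic reticulum, had the lowest fold change of the 32. It measured 9.34, 7.75, 6.46, 16.8 and 27.4 CPM in DMSO libraries 1 to 5 and 9.42, 8.10, 4.84, 10.5 and 15.6 CPM in FICZ libraries 1 to 5. The FICZ library was lower in pairs 3, 4 and 5 and slightly higher in pairs 1 and 2, and the groups overlapped. Its log2 fold change was -0.48 (SE 0.41, 95% interval -1.37 to 0.41) and became -0.05 (SE 0.34) without DMSO library 5. Of its exon bases 532 also lie in exons of Vps51 on the same strand.

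Ebp (chrX:8185329-8193512, minus strand), a sterol isomerase, measured 62.7, 56.2, 48.8, 71.5 and 116 CPM in DMSO libraries 1 to 5 and 69.8, 55.2, 56.2, 61.6 and 71.3 CPM in FICZ libraries 1 to 5. DMSO library 5 was above all the others, and the remaining 9 libraries overlapped. Its log2 fold change was -0.18 (SE 0.20, 95% interval -0.62 to 0.27) and became 0.07 without DMSO library 5. Msmo1, which removes methyl groups from the sterol ring, and Dhcr7, which catalyses the last reduction to cholesterol, had the same high library, and both were singled out after their values were seen. Msmo1 measured 218, 239, 201, 296 and 546 CPM in DMSO libraries 1 to 5 and 282, 246, 245, 256 and 334 CPM in FICZ libraries 1 to 5. Dhcr7 measured 48.7, 48.1, 32.6, 75.6 and 116 CPM in DMSO libraries 1 to 5 and 51.6, 45.5, 38.6, 68.2 and 80.3 CPM in FICZ libraries 1 to 5. For Dhcr7 libraries 4 and 5 of both groups lay above all 6 others. The rest of the segment, Fdft1, Lss, Cyp51, Nsdhl, Hsd17b7 and Sc5d, also had its highest FICZ value in library 5.

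The 5 SREBP regulators had a median range between replicate numbers of 0.42 on the log2 CPM scale, close to the 0.43 of all genes, against 0.76 in the cholesterol arm and 0.54 in the fatty acid arm. They differed among themselves, from 0.08 for Scap to 0.71 for Insig1. Srebf2 (chr15:82147181-82205379, plus strand), the factor best known for the cholesterol arm, measured 233, 244, 228, 274 and 256 CPM in DMSO libraries 1 to 5 and 219, 227, 239, 279 and 275 CPM in FICZ libraries 1 to 5. All 10 values lay within 219 to 279 CPM, with libraries 4 and 5 above the others in both groups. The log2 fold change of Srebf2 was 0.00 (SE 0.09, 95% interval -0.20 to 0.21), and its sign turned with the scaling. Srebf1 (chr11:60199089-60222581, minus strand), the factor best known for the fatty acid arm, measured 154, 141, 129, 183 and 207 CPM in DMSO libraries 1 to 5 and 129, 133, 143, 179 and 160.1 CPM in FICZ libraries 1 to 5. Libraries 4 and 5 were again above all 6 others, and the FICZ library was lower in every pair but the third. For Srebf1 the log2 fold change was -0.13 (SE 0.14, 95% interval -0.43 to 0.17), and without DMSO library 5 it was -0.03.

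Scap (chr9:110333288-110384950, plus strand), the escort of both factors, measured 153, 136, 137, 135 and 136 CPM in DMSO libraries 1 to 5 and 129, 133, 140.0, 141 and 130.1 CPM in FICZ libraries 1 to 5. DMSO library 1 was the highest, and the other 9 lay between 129 and 141 CPM, with no rise in libraries 4 and 5. Its log2 fold change was -0.05 (SE 0.07, 95% interval -0.19 to 0.10), and its exact two-sided permutation p of 0.325 was the lowest of the 32 genes.

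Insig1 and Insig2 encode the proteins that retain SCAP, and Insig1 is itself an SREBP target. Insig1 (chr5:28071363-28078662, plus strand) measured 226, 238, 206, 307 and 352 CPM in DMSO libraries 1 to 5 and 256, 230.3, 224, 283 and 351 CPM in FICZ libraries 1 to 5. Its libraries 4 and 5 lay above all others, as for the enzymes, and number 5 gave nearly the same value in both groups. The log2 fold change of Insig1 was 0.02 (SE 0.17, 95% interval -0.35 to 0.38). Insig2 (chr1:121304353-121332589, minus strand) measured 38.4, 39.9, 33.9, 36.8 and 58.3 CPM in DMSO libraries 1 to 5 and 42.8, 39.4, 37.7, 34.5 and 42.0 CPM in FICZ libraries 1 to 5. DMSO library 5 was far above the others and library 4 was not raised in either group. For Insig2 it was -0.08 (SE 0.14, 95% interval -0.38 to 0.22). Stard4, which carries cholesterol between membranes, measured 113, 139.6, 114, 181 and 212 CPM in DMSO libraries 1 to 5 and 133, 137, 124, 138 and 196 CPM in FICZ libraries 1 to 5. Number 5 was its highest library in both groups.

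In the fatty acid arm 4 of 8 genes had a log2 fold change above 0 and 4 below, with a median of 0.00, and none passed a test. Fasn (chr11:120805846-120824547, minus strand), the fatty acid synthase, measured 625, 619, 613, 785 and 706 CPM in DMSO libraries 1 to 5 and 520.2, 634, 661, 814 and 800.2 CPM in FICZ libraries 1 to 5. Libraries 4 and 5 were the highest of both groups, and the groups overlapped. For Fasn the log2 fold change was 0.03 (SE 0.13, 95% interval -0.25 to 0.32). Acaca (chr11:84129672-84401651, plus strand), the carboxylase that makes malonyl-CoA for Fasn, measured 103, 121, 109.7, 119 and 103 CPM in DMSO libraries 1 to 5 and 95.01, 119, 119, 126 and 139 CPM in FICZ libraries 1 to 5. DMSO library 5 was at the level of DMSO library 1, the lowest of its group, and FICZ library 5 was the highest of all 10. For Acaca it was 0.11 (SE 0.10, 95% interval -0.11 to 0.33), and 30.4% of its 50-base stretches also occur in other genes, most of them in Gm5182. Acly, which supplies the acetyl-CoA, ranged from 484 to 695 CPM.

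The stearoyl-CoA desaturases Scd1 and Scd2 put the first double bond into saturated fatty acids. Scd1 (chr19:44394455-44407879, minus strand) measured 1220.5, 933, 937, 1584 and 2852 CPM in DMSO libraries 1 to 5 and 998, 954, 1064, 1236 and 1486 CPM in FICZ libraries 1 to 5. DMSO library 5 was far above the other 9, which overlapped. Scd1 had the smallest unadjusted p of the 32 in edgeR's test, 0.200 (adjusted p = 0.999), at a log2 fold change of -0.39 (SE 0.29, 95% interval -1.02 to 0.24). Without DMSO library 5 the log2 fold change of Scd1 was -0.03 (SE 0.18). Scd2 (chr19:44293674-44306864, plus strand) measured 1088, 1145, 903, 1407 and 1917 CPM in DMSO libraries 1 to 5 and 1162, 1141, 1019, 1372 and 1657 CPM in FICZ libraries 1 to 5. Libraries 4 and 5 were above all others in both groups. The log2 fold change of Scd2 was -0.02 (SE 0.20, 95% interval -0.46 to 0.41). The desaturases share 4.56% (Scd1) and 3.97% (Scd2) of their 50-base stretches with other genes.

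Fads2 (chr19:10062765-10101746, minus strand) and Fads1 desaturate polyunsaturated fatty acids. Fads2 measured 262, 282, 226, 299.8 and 421 CPM in DMSO libraries 1 to 5 and 270.0, 238, 207, 285 and 301 CPM in FICZ libraries 1 to 5. DMSO library 5 was the highest by a wide gap and library 3 the lowest in both groups. For Fads2 the log2 fold change was -0.20 (SE 0.16, 95% interval -0.55 to 0.15), and without DMSO library 5 it was -0.04. Fads1 ranged from 337 to 532 CPM, in DMSO libraries 3 and 5.

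Per kilobase of exon, Scd1 and Scd2 were the most abundant of the 32 and Tm7sf2 the least. Scd1 had 308 ± 163 CPM per kb (SD, n = 5) in DMSO and 235 ± 44.4 in FICZ. Scd2 had 236 ± 72.0 CPM per kb in DMSO and 232 ± 45.9 in FICZ, and Scd1 and Scd2 did not differ from each other beyond their spread. Hmgcs1 had 95.8 ± 20.1 CPM per kb in DMSO, and Insig1 85.9 ± 19.9, far above Insig2 at 11.9 ± 2.79. Srebf2 had 34.4 ± 2.58 and Srebf1 28.9 ± 5.64 CPM per kb in DMSO, a gap close to the spread of Srebf1. Scap had 18.7 ± 1.02 and Acaca 6.50 ± 0.510 CPM per kb. Tm7sf2 had 3.08 ± 1.98 CPM per kb in DMSO and 2.20 ± 0.894 in FICZ. Exon lengths join the exons of all annotated transcripts, retained introns included, which lowers the level of genes with long unused exons.

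**Figure D2:**
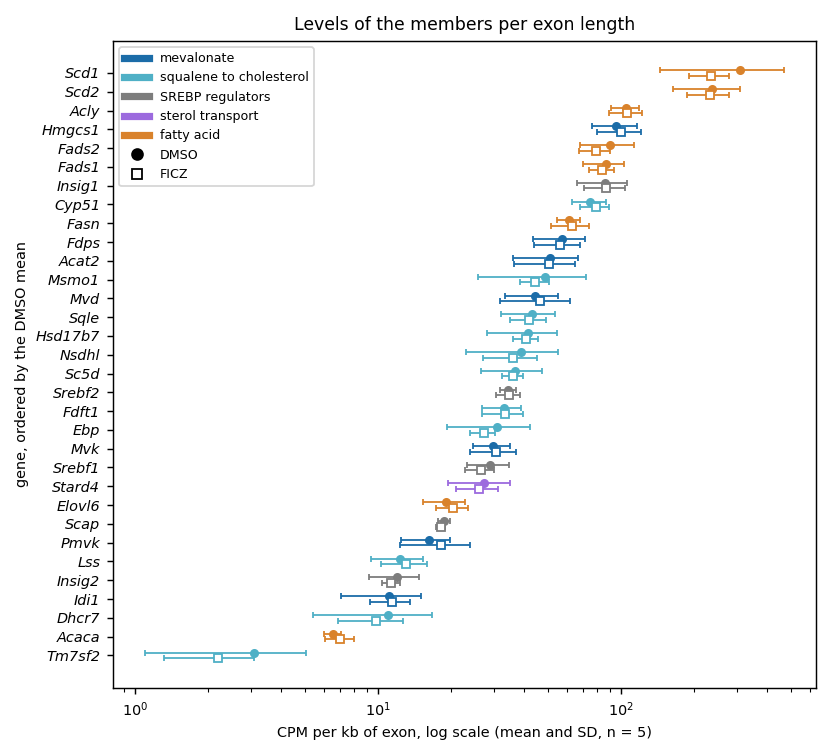
Level of each of the 32 genes in CPM per kb of exon (log axis), as the mean of 5 libraries with bars for the SD, for DMSO and FICZ. Scd1 and Scd2 stand at the top and Tm7sf2 at the bottom in both groups, and the SD bars of the groups overlap for every gene.

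The genes varied together by replicate number, a pattern that was noticed in the data and then measured on the same libraries. In 29 of the 32 genes the highest library was numbered 4 or 5 in both groups, against 28.8% of all genes tested. The others were Scap, Insig2 and Acaca. The highest library was also numbered 4 or 5 in both groups in 10 of 16 other sterol genes. The same held in 14 of 20 other fatty acid genes, so the pattern was not particular to the 32. The highest FICZ library was number 5 in 27 of 32, all 18 of the cholesterol arm among them, against 25.4% of all genes. In 20 of 32 all 4 libraries of numbers 4 and 5 lay above all 6 others, against 6.69% of all genes. These 20 were 10 of the 18 in the cholesterol arm, 7 of the 8 in the fatty acid arm, 3 of the 5 regulators (Srebf1, Srebf2 and Insig1) and no others. At the low end, library 3 was the lowest in 25 of 32 within DMSO, against 19.2% of all genes, and in 21 of 32 within FICZ, against 25.8%.

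**Figure D3:**
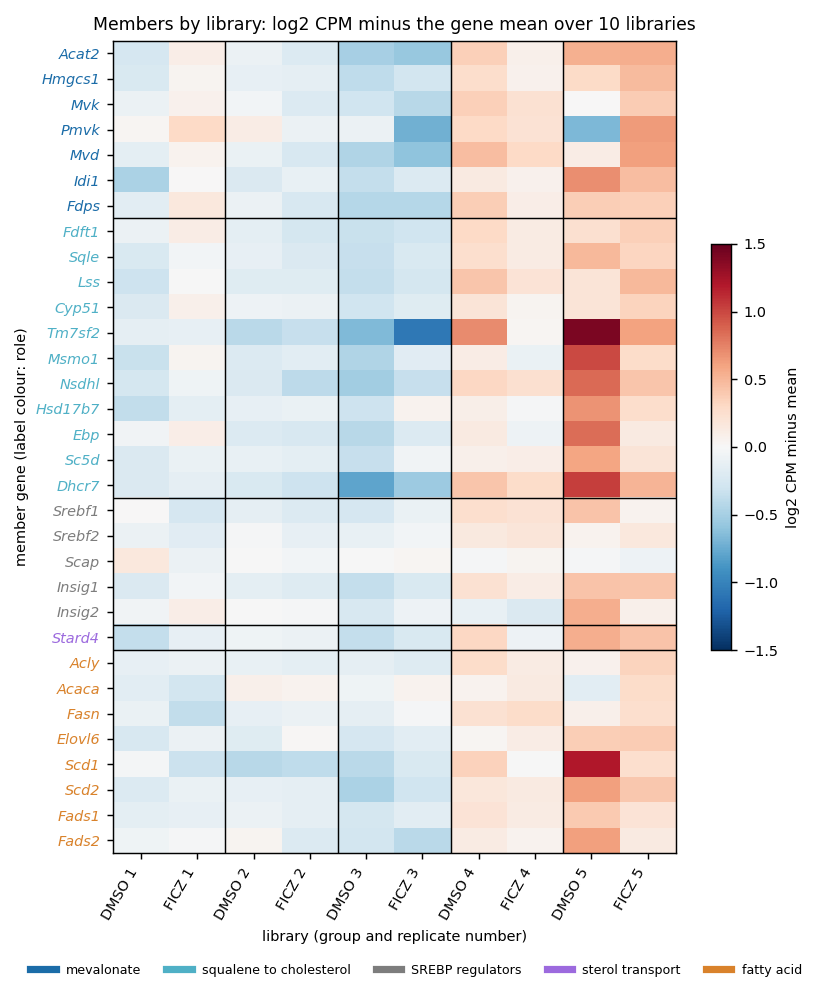
Log2 CPM of each of the 32 genes (y axis) minus its mean over the 10 libraries, with the DMSO and FICZ libraries of each number side by side (x axis). The columns of numbers 4 and 5 are mostly red (above the mean) and those of number 3 mostly blue, in both groups, while Pmvk is below its mean in DMSO 5.

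A test for any difference among the 5 numbers, fitted in edgeR with treatment kept in the model, gave an adjusted p at or under 0.05 for 3 of the 32, against 1.8% of all genes. They were Dhcr7 (adjusted p = 0.0406), Tm7sf2 (0.0438) and Scd2 (0.0456). At an unadjusted p of 0.05 there were 27 of 32, against 19.6% of all genes, and the 5 others were Pmvk, Srebf2, Scap, Insig2 and Acaca. The adjusted calls rest on the numbers kept: without both libraries of number 1, 2, 3 or 4 none of the 32 passed in edgeR, with 27, 23, 23 and 23 of the 32 at an unadjusted p of 0.05. Without number 5 the 3 that passed were Dhcr7, Mvd and Nsdhl. DESeq2's likelihood ratio test called 22 of the 32, against 11.1% of all genes it gave an adjusted p. The range between number means exceeded the size of the treatment difference in all 32, as it did in 13988 of all 14251 genes, since a range over 5 values is wider than a single difference by construction. Its median was 0.70 on the log2 CPM scale over the 32 and 0.43 over all genes, while the median size of a pair difference was 0.18 and 0.20.

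**Figure D4:**
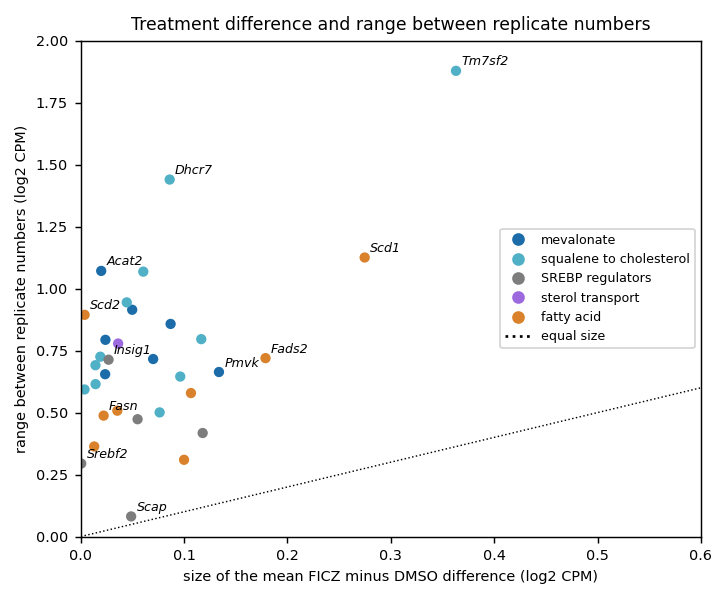
Range between the means of the 5 replicate numbers (y axis) against the size of the mean FICZ minus DMSO difference (x axis), both on the log2 CPM scale, 1 point per gene. All 32 points lie above the dotted line of equal size, with Tm7sf2 at the top and Scap lowest.

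Averaged per library, the arms moved together across the numbers. The cholesterol arm mean was 6.56, 6.63, 6.36, 7.06 and 7.26 log2 CPM in DMSO libraries 1 to 5 and 6.80, 6.57, 6.41, 6.88 and 7.18 in FICZ libraries 1 to 5. Library 5 was the highest and library 3 the lowest in both groups. The group means were 6.78 ± 0.37 in DMSO and 6.77 ± 0.30 in FICZ (SD, n = 5), a difference of -0.01, and the pair differences were 0.23, -0.06, 0.04, -0.18 and -0.08. The fatty acid arm mean was 8.57, 8.59, 8.46, 8.89 and 9.10 log2 CPM in DMSO and 8.53, 8.58, 8.53, 8.82 and 8.99 in FICZ. Libraries 4 and 5 were again the highest. The group means were 8.72 ± 0.27 and 8.69 ± 0.20, a difference of -0.03, and the pair differences were -0.04, -0.01, 0.08, -0.06 and -0.12. Between the numbers the cholesterol arm spanned 0.84 and the fatty acid arm 0.55.

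The arms also kept their distance. The cholesterol arm minus the fatty acid arm was -2.01, -1.96, -2.09, -1.82 and -1.84 log2 CPM in DMSO libraries 1 to 5 and -1.74, -2.01, -2.12, -1.94 and -1.80 in FICZ. The groups overlapped, with means of -1.94 ± 0.11 and -1.92 ± 0.16 that differed by 0.02. In pair 1 the cholesterol arm rose against the fatty acid arm by 0.27, and in the other pairs the differences lay between -0.12 and 0.03. These are descriptions of means over chosen genes, with no test.

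**Figure D5:**
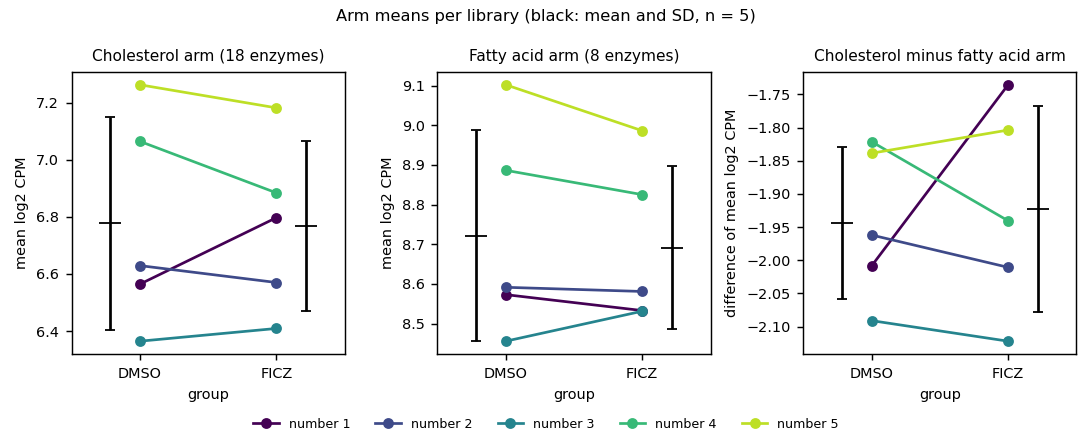
Mean log2 CPM of the cholesterol arm (left) and fatty acid arm (middle) and their difference (right) per library, with lines joining same-numbered DMSO and FICZ libraries, and black bars for the mean and SD of 5 libraries. Numbers 4 and 5 are highest for both arms, and the group means differ by -0.01, -0.03 and 0.02.

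The pairs did not share a direction. The FICZ library was the higher one for 26 of the 32 genes in pair 1, 8 in pair 2, 24 in pair 3, 6 in pair 4 and 13 in pair 5. Over all 14251 genes tested the counts were 7182, 7397, 7834, 7171 and 7448 in pairs 1 to 5. In pair 1 all 18 genes of the cholesterol arm were higher with FICZ, and in pair 4 only 1 of the 18 was. Pair 5 split the cholesterol arm, with 5 of 7 mevalonate genes higher with FICZ but 3 of 11 from squalene to cholesterol. The mean pair 5 difference was 0.31 in the mevalonate segment and -0.33 in the segment from squalene to cholesterol.

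The balance of directions depended on the libraries kept. The median log2 fold change of -0.03 became -0.11 without FICZ library 5 or DMSO library 3, and -0.09 without DMSO library 1. It became 0.08 without DMSO library 5, and lay between -0.06 and 0.03 without any 1 of the rest. Without DMSO library 5, 27 of the 32 fold changes were above 0 and 5 below, in place of 14 and 18. Their range was -0.06 to 0.27. None reached an unadjusted p of 0.05 in edgeR, and the lowest was that of Elovl6, 0.0687 (adjusted p = 1.00). This is the library with the 9486 CPM of hepatocyte markers, and its sum of 12 macrophage markers, 72.6 CPM, was also the highest, against 25.4 to 41.3 in the others. Endothelial markers summed to 12.4 to 20.7 CPM and mesothelial markers to 66.4 to 117 CPM, both with their highest value in DMSO library 5. The endothelial sum was close behind in DMSO library 4 (20.0 CPM), and Kdr and Cdh5 were not highest in library 5. Of the mesothelial markers, Wt1 (81.6 CPM) and Krt8 (26.6 CPM) were highest in DMSO library 5. Krt19 (0.328 CPM) and Lrrn4 (0.759 CPM) were at their lowest there, and Msln and Upk3b were not raised, all with TMM factors. The part of those markers in the high Scd1, Msmo1, Tm7sf2, Ebp and Dhcr7 of DMSO library 5 was not tested. FICZ library 5 had 1813 CPM of hepatocyte markers, within the range of the other FICZ libraries. It was the highest of its group for 27 of the 32 genes. ASPC markers, 9 genes, summed to 7362 to 8708 CPM in the 4 libraries numbered 4 and 5 and to 5605 to 6473 in the 6 others. Of the 9, 4 had their highest library numbered 4 or 5 in both groups, against 28.8% of all genes tested. Col1a1 alone measured 2378 to 4432 CPM with TMM factors. Pdgfra in DMSO library 5, at 1253 CPM, was below DMSO libraries 2, 3 and 4. The mature adipocyte sum was 1236 to 1530 CPM in those 4 libraries and 960 to 1172 in the others, and Lpl alone measured 882 to 1381 CPM with TMM factors. Of its 9 tested genes 6 had their highest library numbered 4 or 5 in both groups, against the same 28.8%. Fabp4 was at its lowest of all 10, 32.8 CPM, in DMSO library 5. Proliferation markers did not share the pattern, with 0 of 8 genes highest in numbers 4 or 5 in both groups. The part of such differences between cultures in the levels of the 32 genes was not tested.

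The neighbouring genes of lipid metabolism gave few unadjusted calls, to be read beside the 4.82% of all genes at an unadjusted p of 0.05. Of 16 other sterol genes (transport, uptake, storage and the LXR factors) none passed the adjusted threshold and 1 reached an unadjusted p of 0.05. It was Nr1h3, encoding the oxysterol receptor LXR alpha, which measured 15.5, 12.7, 16.8, 20.0 and 19.0 CPM in DMSO libraries 1 to 5 and 12.3, 11.3, 12.7, 16.0 and 14.3 CPM in FICZ libraries 1 to 5. The FICZ library was lower in all 5 pairs, as in 2.81% of all genes, though the groups overlapped. Its log2 fold change was -0.33 (SE 0.14, 95% interval -0.64 to -0.03), with an adjusted p of 0.999 in edgeR, and 0.637 with the replicate block. Of 20 other fatty acid genes none passed the adjusted threshold and 2 reached an unadjusted p of 0.05, both lower. Counts of 1 in 16 and 2 in 20 are near the 4.82% of all genes. Mlxipl, encoding the carbohydrate-sensing factor ChREBP that acts on fatty acid synthesis genes beside SREBP, measured 9.02, 3.90, 4.603, 8.02 and 23.9 CPM in DMSO libraries 1 to 5 and 4.31, 3.56, 4.09, 4.10 and 5.38 CPM in FICZ libraries 1 to 5. FICZ was lower in all 5 pairs, most of all in pair 5, and the high libraries were DMSO 1, 4 and 5. Thrsp, a lipogenic gene of liver and fat, measured 25.5, 8.62, 9.28, 23.2 and 61.3 CPM in DMSO libraries 1 to 5 and 15.0, 11.0, 13.4, 9.35 and 12.5 CPM in FICZ libraries 1 to 5. DMSO libraries 1, 4 and 5 were again the high ones. These 3 had the highest hepatocyte sums (3656, 3416 and 9486 CPM), and the part of those markers in the differences of Mlxipl and Thrsp was not tested. The log2 fold changes were -1.21 (SE 0.43, 95% interval -2.15 to -0.27) for Mlxipl and -1.06 (SE 0.46, 95% interval -2.07 to -0.05) for Thrsp, both with an adjusted p of 0.999 in edgeR. In edgeR with the replicate block 4.65% of all genes reached an unadjusted p of 0.05. With the replicate block Mlxipl stayed at an unadjusted p under 0.05 in edgeR (0.0203) and Thrsp did not (0.147). Acacb, the carboxylase of mitochondria named after its values were seen, reached one there (0.0153, against 0.0853 without the block) and was lower in all 5 pairs, with an adjusted p of 0.929 for all 3 genes. Without DMSO library 5 the log2 fold changes were -0.57 for Mlxipl and -0.44 for Thrsp, and that of Nr1h3 was -0.29, with only Mlxipl still at an unadjusted p under 0.05 (Nr1h3 0.0644, Mlxipl 0.0374, Thrsp 0.195).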

How the data were processed

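Bulk RNA of cultured mouse ASPCs was measured in 5 DMSO and 5 FICZ libraries, grouped by their labels. The authors aligned reads with STAR 2.7.7 to mm10 and deposited whole-number counts for each gene symbol, not normalized. The counting tool and the use of strand are not given in the sources used here, so overlapping genes on either strand could share counts.

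Of 25229 genes, 14251 passed edgeR's filter by expression. FICZ was compared with DMSO by edgeR's quasi-likelihood test (edgeR 4.0.16, R 4.3.3) with TMM factors and robust dispersions, with Benjamini-Hochberg adjustment across the 14251 genes and a threshold of 0.05. CPM values use TMM factors, those of marker sums library sizes alone, and log2 CPM a prior count of 2. Single genes were also compared by an exact permutation test over 252 arrangements, whose smallest p is 0.00794. Library totals were 38328611 to 50210111 counts, which keeps counting error small for these genes. The scripts were tested on simulated counts.

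The labels number the libraries 1 to 5 in both groups without saying what a number marks. Deviations from group means correlated within every same-numbered pair (0.15 to 0.32, mean 0.25). The mean between other libraries of opposite groups was -0.06. That value is no separate contrast, since centring on group means pushes it below 0 when pairs correlate. Of the 10 libraries, 6 correlated best with the library of their own number. On this ground the numbers were taken as pairs and a fit with the replicate block was run. The test among numbers, fits without the libraries of a number, and the counts for numbers 4 and 5 were added after the data were seen. Alternatives were other size factors and filters, limma-voom 3.58.1, DESeq2 1.42.0 and leaving out each library.

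The genes, the lists and the rule for naming were chosen with earlier results of these data known. The rule named the SREBP regulators, Hmgcs1, Sqle, Fasn, Acaca, Scd1 and Scd2 by role, the 6 genes with the smallest unadjusted p, the highest and lowest per exon length, and genes of related lists at an unadjusted p of 0.05. Other genes were named after their values were seen. Symbols were matched to GENCODE M21 for GRCm38 (96.5% found), which gave coordinates, exon lengths and 50-base stretches shared between transcripts. Promoter sequences are from RefSeq, GRCm38.p6. Fdps, Fdft1, Sqle, Stard4, Scd1, Scd2 and Fads1 have no entry in the promoter table used.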

Additional observations from a re-analysis of the deposited data

Results flagged for a closer look

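Among 70 groups of 5 libraries, 4 had a library far from the others, with a gap to its nearest neighbour above 0.71 of the group's whole range. Chance gives about 1 in 20 such groups. For Scap in DMSO this share was 0.924, with DMSO library 1 the highest at 153 CPM. For Msmo1 in DMSO it was 0.723, and for Insig2 in DMSO it was 0.754, with DMSO library 5 the highest for both, at 546 and 58.3 CPM. For Stard4 in FICZ it was 0.813, with FICZ library 5 the highest at 196 CPM. DMSO library 5 is also the library with the highest sum of hepatocyte markers, and the part of those markers in the values of Msmo1 and Insig2 was not tested.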

How the results depend on the processing

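None of the 32 genes passed the adjusted threshold for FICZ under any size factor, filter, tool, block or left-out library tried. At an unadjusted p of 0.05 there was 1 (Tm7sf2) with the replicate block in edgeR and 1 in DESeq2 with the block, and 0 in the other fits. Over all genes tested, the 3 that passed became 8 with the replicate block, 16 in DESeq2 and 26 in DESeq2 with the block, and 1 to 4 when each library was left out. In edgeR the block also cost Tiparp its call (adjusted p from 0.0335 to 0.0509), moved Thrsp out of and Acacb into the unadjusted calls, and changed no other call of a named gene.

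Fold changes near 0 turned sign. Srebf2 went from 0.00 to -0.0024 with DESeq2 size factors, -0.017 with upper-quartile factors, -0.014 with library size only, -0.0035 with no filter, -0.018 with a stricter filter and -0.0039 in DESeq2 with the replicate block. Insig1 went from 0.02 to -0.0087 with upper-quartile factors, -0.0050 with library size only and -0.0087 with the stricter filter. Scd2 became 0.0047 in limma-voom and 0.0037 in edgeR with the replicate block. Leaving out each library gave -0.047 to 0.047 for Srebf2, -0.11 to 0.14 for Insig1, -0.14 to 0.076 for Insig2, -0.070 to 0.15 for Hmgcs1, -0.13 to 0.10 for Sqle, -0.037 to 0.12 for Fasn, -0.15 to 0.16 for Scd2 and -0.28 to 0.071 for Ebp. With no turn of sign it gave -0.20 to -0.03 for Srebf1, -0.28 to -0.04 for Fads2, -0.52 to -0.03 for Scd1, -0.73 to -0.05 for Tm7sf2, -0.07 to -0.03 for Scap and 0.04 to 0.18 for Acaca. For each of the 8 genes that turned sign at least 1 end of the range came without DMSO library 5 or FICZ library 5. The arm means moved by less than the spread between libraries under every alternative run.

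For the test among replicate numbers, DESeq2's likelihood ratio test gave 22 of the 32 genes in place of 3, and 1491 of all genes in place of 257. Without the libraries of 1 number at a time the counts were 0 to 3 of the 32 and 0 to 433 of all genes. The cause was not tested.

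With 5 libraries per group, the fit without the block had a median standard error of 0.17 on the log2 scale. In that fit shifts smaller than the intervals given for each gene were not detectable. With the replicate block the median standard error was 0.09, so the limit was smaller there. The lowest count of any of the 32 was 192, well above the limit of 3 counts. Acat2, Acaca and Idi1, which share stretches with other loci, and Fdps, which overlaps Gm43738, are uncertain.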
